A study of Mus musculus with 12 samples.

Results

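The genes described here are the integrins of mouse granulocyte-monocyte progenitors (GMP) and the intracellular proteins that switch them on. They number 32 genes, chosen by name: 18 integrin alpha chains, 8 beta chains, 3 kindlins, 2 talins and Itgb1bp1, an inhibitor that binds an integrin tail. The arrays carried 48 probes for them among 39429 probes, and 23 of the 32 genes were bright enough to be tested, among 17905 genes tested in all. GMP give rise to neutrophils and monocytes in bone marrow, and the study compared 4 groups of them. Runx1-deleted GMP (ko, 4 arrays) came from Runx1 fl/fl mice and wild-type GMP (wt, 4 arrays) from Runx1+/+ mice, and both carried Tg(vav-Cre), a transgene that makes Cre recombinase in blood cells. The other groups were transplanted cells. Bone marrow of Runx1 fl/fl Tg(vav-Cre) donors, taken 3 days after 150 mg/kg of 5-fluorouracil, a drug that kills dividing cells, was infected with a MIG retrovirus that carried GFP together with RUNX1-ERt2 (RUNX1 joined to a domain that responds to tamoxifen) or with ERt2 (only the domain). Lethally irradiated recipients of these cells received 49.5 µg/g tamoxifen on 3 days after 6 weeks, and viable GFP-positive GMP were sorted 24 h later (RUNX1-ERt2, 2 arrays; ERt2, 2 arrays). All transplanted cells thus lacked endogenous Runx1 and had passed through the same drug, virus and transplantation, so ERt2 and not wt is the control for RUNX1-ERt2. The protocol mentions tamoxifen for a part of the mice only, whereas each of the 4 transplanted samples is described as treated.

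Each integrin is a pair of one alpha and one beta chain that spans the membrane and holds a cell to matrix or to another cell. On resting blood cells integrins bind weakly, and binding of a talin and a kindlin to the short cytoplasmic tail of the beta chain switches them to the strong form. Kindlin-3, encoded by Fermt3, is the kindlin of blood cells, and its loss in people and mice causes both a leukocyte adhesion deficiency and bleeding. An alpha chain reaches the surface only in a pair, so the supply of both partners sets how much receptor a cell can carry.

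Values are log2 intensities from which the array's own 75th percentile was subtracted, so 0 is the level of that percentile and negative values are dimmer. Levels of different probes cannot be set against each other, and all comparisons are of 1 probe between groups. Precision is limited by how few arrays there are, and nothing in the labels ties the arrays of a group to separate animals, so p-values reflect only how far these samples spread, which can be technical. Per array, 53.5% to 63.2% of probes stood well above background, and the median signal lay between 61.4 and 92.5 on the ko and wt arrays and between 40.2 and 54.4 on the dimmer transplanted ones. The ko and wt arrays shared slide 1 (replicates 1 and 2) and slide 2 (replicates 3 and 4), whereas ERt2 lay on slide 3 and RUNX1-ERt2 on slide 4, so for the transplanted groups slide and group cannot be told apart. Runx1 itself was brighter in ko than in wt (1.69 ± 0.17, SE; limma adjusted p = 0.00025) and dimmer in RUNX1-ERt2 than in ERt2 (−1.09 ± 0.24, adjusted p = 0.0123). No source used here places its probe inside or outside the deleted segment, so this is no test of the deletion. All 11 GMP marker genes, among them Mpo, Elane and Cebpa, were well above background on at least 1 array of every group. At a limma adjusted p under 0.05, 1 of the 11 was higher and 5 were lower in ko than in wt (median −0.55). Their summed linear level was 350 to 515 in ko and 604 to 857 in wt.

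In Runx1-deleted GMP, 9 of the 23 tested genes were called higher and 4 lower than in wild-type GMP, at an adjusted p under 0.05 over all genes. Of all genes tested, 11.5% were called higher and 13.8% lower. The genes called higher were the alpha chains Itga9, Itga2b, Itga6, Itga2, Itga10 and Itga4, the beta chains Itgb6 and Itgb2, and the kindlin Fermt3. Those called lower were Itga1, Itgax, Itgad and Itgb5. All 13 had the same direction on both slides, and 9 of the 13 calls held without any 1 array. Both counts use the arrays that gave the calls, so they are no separate evidence. The median log2 difference was 0.31 over the 23 genes and −0.05 over all genes. With RUNX1-ERt2, 2 of the 23 were called higher than with ERt2 (Itgax and Itgb7) and 4 lower (Itga1, Itga9, Itgal and Itgb2), where 10.2% of all genes were called higher and 8.87% lower. The median was −0.07 over the 23 genes and 0 over all genes. In whole sorted populations, fewer cells of a type and less RNA per cell cannot be told apart, and this holds for every difference below.

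**Figure D1:**
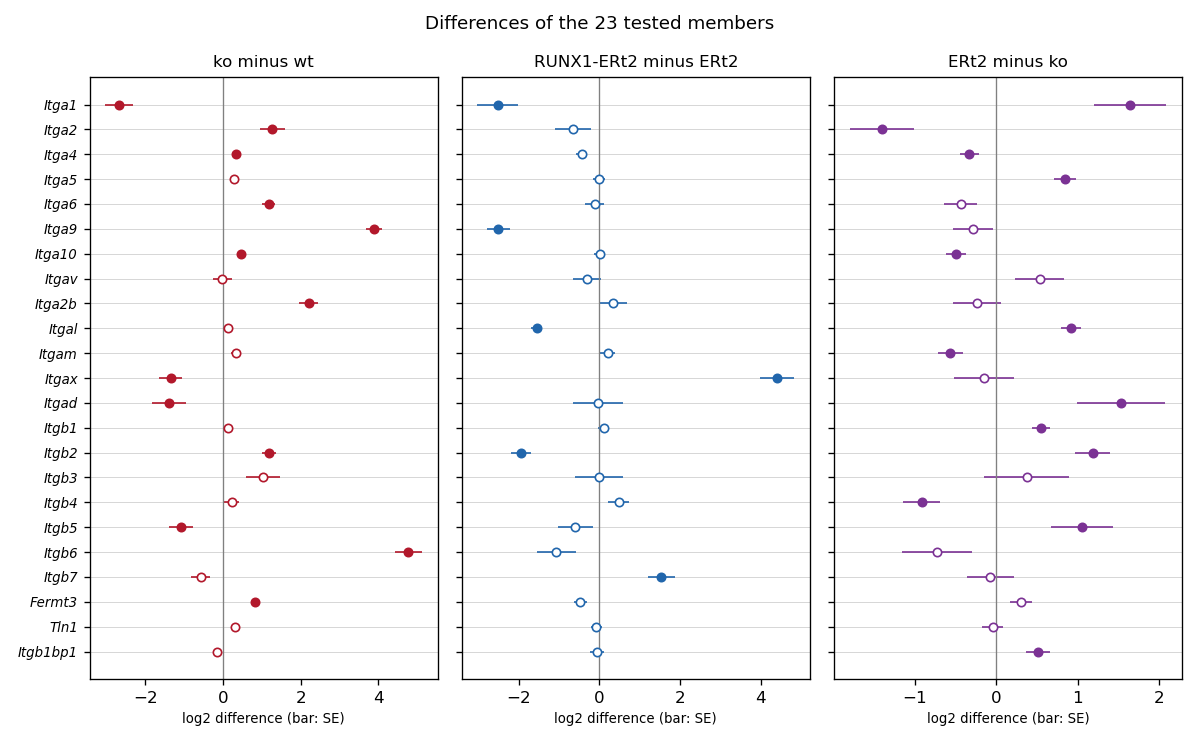
Log2 differences (horizontal axes, bar: SE) of the 23 tested integrin, kindlin and talin genes (vertical axis) for ko minus wt (left), RUNX1-ERt2 minus ERt2 (middle) and ERt2 minus ko (right), with filled points called at an adjusted p under 0.05. Itga9 and Itgb6 lie farthest right for ko minus wt, at 3.89 and 4.77, and Itgax lies farthest right for RUNX1-ERt2 minus ERt2, at 4.40. The horizontal axes of the 3 panels have different ranges.

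The leukocyte integrins share the beta chain Itgb2 (CD18) and differ in the alpha chain. Itgb2 measured 0.87, 1.11, 1.29 and 0.87 on the ko arrays, against −0.05, −0.16, 0.14 and −0.54 on the wt arrays. Every ko array lay above every wt array, and Itgb2 was 2.28-fold higher in ko (1.19 ± 0.18, adjusted p = 0.00187; 1.10 on slide 1 and 1.28 on slide 2). In the transplanted cells it measured 0.35 and 0.21 with RUNX1-ERt2, against 2.46 and 1.98 with ERt2. It was 3.83-fold lower with RUNX1-ERt2 (−1.94 ± 0.25, adjusted p = 0.000805), and both calls held without any 1 array. Late neutrophil markers, of which none of 11 was called, had a median difference of −2.44 with RUNX1-ERt2 and a summed level of 122 to 142 with RUNX1-ERt2, against 543 to 674 with ERt2. Of the 11 GMP markers none was called higher and 5 lower, among them Elane (−2.38 ± 0.52), with a summed level of 463 to 666 with RUNX1-ERt2, against 945 to 1080 with ERt2. The part of either list in the falls of Itgb2 and of Itgal, described next, was not tested. Itgb2 differed in opposite directions where RUNX1 was deleted and where it was put back.

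Itgal (CD11a), the alpha chain that forms LFA-1 with Itgb2 and binds ICAM proteins, was not called in ko against wt, at −0.14, −0.28, −0.10 and −0.22 in ko, against −0.46, −0.20, −0.17 and −0.46 in wt (0.14 ± 0.10, adjusted p = 0.337). With RUNX1-ERt2 it measured −0.77 and −0.87, against 0.82 and 0.64 with ERt2. It was 2.93-fold lower with RUNX1-ERt2 (−1.55 ± 0.14, adjusted p = 0.000104), next to the fall of its partner Itgb2. Of the 2 other Itgal probes, one differed by −1.58 ± 0.17 and the other by −0.11 ± 0.25. With the mean of the 3 probes Itgal was also called higher in ko (0.37, adjusted p = 0.0102).

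Itgax (CD11c), best known from dendritic cells and macrophages, differed most of all members between the transplanted groups. It measured 1.35 and 2.38 with RUNX1-ERt2, against −2.0 and −3.08 with ERt2. That was a 21.2-fold higher signal with RUNX1-ERt2 (4.40 ± 0.43, adjusted p = 0.000161), opposite to the fall of its partner Itgb2. In the native cells Itgax measured −1.94, −1.58, −2.69 and −3.36 in ko, against −0.57, −0.56, −1.25 and −1.80 in wt. On each slide both ko arrays lay below both wt arrays, and the difference was −1.35 ± 0.30 (adjusted p = 0.0124; −1.20 on slide 1 and −1.50 on slide 2). This call ended without the slide term (adjusted p = 0.0664). Of 10 tested markers of monocytes, macrophages and dendritic cells, none was called higher and 5 lower in ko, and none higher and 4 lower with RUNX1-ERt2. Their summed linear level was 101 to 115 in ko and 132 to 136 in wt, and 80.6 to 89.4 with RUNX1-ERt2 and 156 to 169 with ERt2. All of them were well above background on at least 1 array of each group, and their part in the result was not tested. With RUNX1-ERt2, Itgax was thus high where Csf1r (−2.44 ± 0.41), Adgre1 (−2.06 ± 0.37) and F13a1 (−5.40 ± 0.50), genes of monocytes and macrophages, were called lower.

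Itgam (CD11b), which forms Mac-1 with Itgb2 on neutrophils and monocytes, was not called in either comparison (0.34 ± 0.13, adjusted p = 0.0813, for ko minus wt and 0.21 ± 0.18, adjusted p = 0.486, for RUNX1-ERt2 minus ERt2). It was called higher in ko with quantile normalization (0.46, adjusted p = 0.0417). Itgad (CD11d), a close relative of Itgam and Itgax found on macrophages, measured −5.18, −4.40, −6.64 and −5.96 in ko, against −3.24, −3.03, −5.51 and −4.86 in wt. The groups overlapped because slide 2 was dimmer than slide 1 in both, and within a slide each ko array lay below each wt array. The fall in ko (−1.39 ± 0.44, adjusted p = 0.0469) was not called when replicate numbers were blocked (adjusted p = 0.0653) and ended without any 1 of 8 arrays, at the most without ko replicate 1 (adjusted p = 0.132). The probes of Itgam, Itgax and Itgad follow each other on chromosome 7 (mm9), with 32.2 kb between Itgam and Itgax and 54.8 kb between Itgax and Itgad. Of these 3 neighbours, 1 was called with RUNX1-ERt2, and Itgam and Itgad differed by 0.21 ± 0.18 and −0.04 ± 0.62. Other Itgam probes went the other way with RUNX1-ERt2, by −0.795 ± 0.31 and −0.38 ± 0.33.

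**Figure D2:**
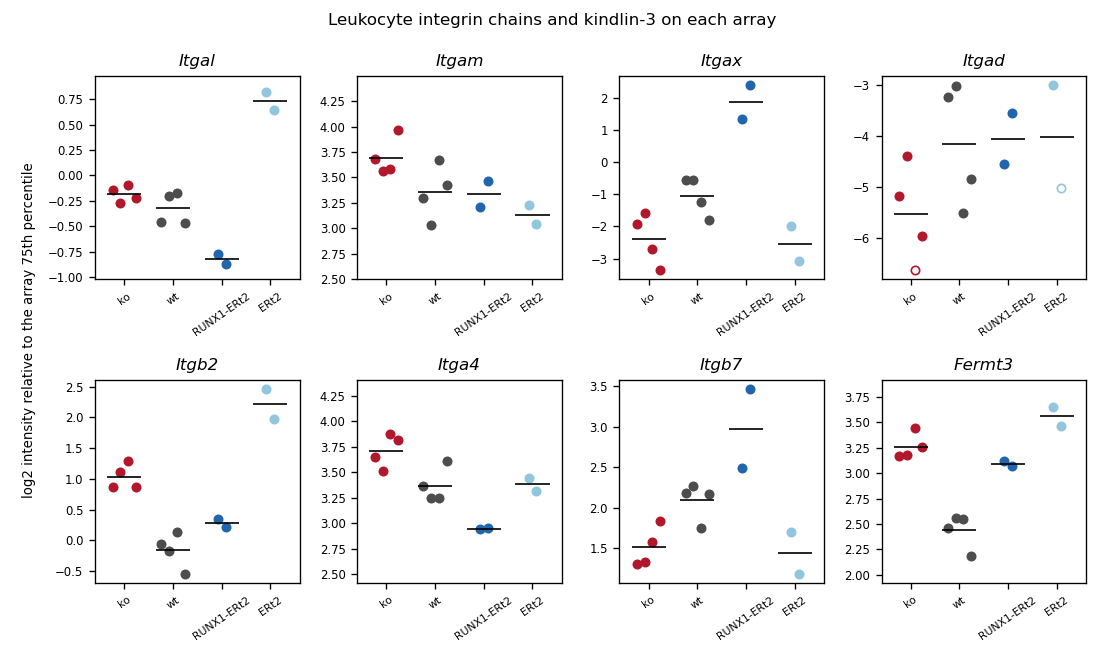
Log2 intensity relative to the array 75th percentile (vertical axes) of 7 leukocyte integrin chains and the kindlin Fermt3 on each array of ko, wt, RUNX1-ERt2 and ERt2 (horizontal axes), with 1 point per array, filled where well above background, and a line at the group mean. Itgb2 and Itgal lie below ERt2 on both RUNX1-ERt2 arrays, whereas Itgax and Itgb7 lie above it. The vertical axes have different ranges.

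Itga4, which pairs with Itgb1 to bind VCAM1 in the bone marrow or with Itgb7 to bind MAdCAM1 in the gut, measured 3.65, 3.52, 3.88 and 3.81 in ko, against 3.37, 3.25, 3.24 and 3.62 in wt. The difference was small (0.34 ± 0.10, adjusted p = 0.0298), 1 wt array lay above the lowest ko array, and the call ended without any 1 of 5 arrays (at the most adjusted p = 0.083, without ko replicate 1), with normexp background correction and without the slide term. A second probe of Itga4 differed by 0.27 ± 0.19. With RUNX1-ERt2 Itga4 measured 2.95 and 2.95, against 3.45 and 3.31 with ERt2, which narrowly missed the threshold (−0.43 ± 0.14, adjusted p = 0.055) and passed with the array median as the scale (−0.51, adjusted p = 0.026). Its partner Itgb7 moved the other way: it measured 2.49 and 3.47 with RUNX1-ERt2, against 1.70 and 1.19 with ERt2. Both RUNX1-ERt2 arrays lay above both ERt2 arrays (1.54 ± 0.33, adjusted p = 0.0117), but the call ended without RUNX1-ERt2 replicate 2 or without ERt2 replicate 2 (at the most adjusted p = 0.079). In ko, Itgb7 lay at −0.58 ± 0.24 relative to wt (adjusted p = 0.105). The other alpha partner of Itgb7, Itgae (CD103), which binds E-cadherin, was not well above background on any array.

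The integrins that share Itgb1 hold progenitors to matrix proteins. Itgb1 itself was measured by a probe that reads the end of its coding sequence, across an exon junction at chr8:131250081-131255976 (mm9, + strand). It is shown because it encodes both docking motifs of the tail for the switch proteins. Translated in its 1 open frame, it holds 2 Asn-Pro-x-Tyr motifs, in capitals, of which the membrane-near one is known to bind talin and the other to bind kindlin.
Itgb1 probe: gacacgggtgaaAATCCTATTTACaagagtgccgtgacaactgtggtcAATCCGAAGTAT
This probe gave 0.76, 0.62, 0.91 and 0.68 in ko, against 0.60, 0.60, 0.64 and 0.59 in wt, and 1.56 and 1.24 with RUNX1-ERt2, against 1.30 and 1.28 with ERt2. The groups of each pair overlapped, and Itgb1 was called in neither comparison (0.14 ± 0.09, adjusted p = 0.317, and 0.11 ± 0.13, adjusted p = 0.633). A second probe gave −0.01 ± 0.16 and 0.16 ± 0.23. Around this shared chain the alpha partners went different ways.

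Itga9, an alpha chain that binds tenascin-C and VCAM1 and takes part in neutrophil maturation, measured 0.08, −0.11, −0.11 and 0.15 in ko, against −3.79, −3.92, −3.86 and −4.00 in wt. The 2 groups were far apart and tight, and Itga9 was 14.9-fold higher in ko (3.89 ± 0.20, adjusted p = 7.02e-06; 3.84 and 3.95 on the slides). With RUNX1-ERt2 it measured −2.46 and −3.13, against 0.14 and −0.72 with ERt2, a 5.67-fold lower signal (−2.50 ± 0.28, adjusted p = 0.0004). Both calls held without any 1 array and with normexp background correction. Even with RUNX1-ERt2 both arrays stayed above all wt arrays, a gap that was not tested since these groups differ also in transplantation and slide.

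Itga6, a laminin receptor chain found on stem cells and megakaryocytes, was 2.26-fold higher in ko, at 4.50, 4.38, 4.22 and 4.54, against 3.16, 2.90, 3.09 and 3.78 in wt (1.18 ± 0.17, adjusted p = 0.00146). Every ko array lay above every wt array. With RUNX1-ERt2 it measured 3.83 and 3.89, against 3.92 and 4.03 with ERt2 (−0.12 ± 0.24, adjusted p = 0.796). A second Itga6 probe gave −0.06 ± 0.25 for ko minus wt and 1.52 ± 0.35 for RUNX1-ERt2 minus ERt2, and with the mean of both probes the rise in ko was 0.56 (adjusted p = 0.0565). The change of Itga6 thus depended on the probe. Of 9 tested markers of stem cells and early progenitors, 5 were called higher and 2 lower in ko (median 1.34), with a summed level of 33.5 to 41.4 in ko and 20.6 to 23.8 in wt. None was below background on all arrays of a group, and their part in the Itga6 result was not tested.

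The collagen receptor chains Itga1, Itga2 and Itga10 went opposite ways. Itga1 measured −5.36, −5.75, −7.80 and −8.07 in ko, the last 2 not well above background, against −3.66, −4.04, −4.09 and −4.52 in wt. All ko arrays lay below all wt arrays (−2.67 ± 0.36, adjusted p = 0.00114), by −1.70 on slide 1 and −3.64 on slide 2, where the ko value lies at background. It was not well above background on either RUNX1-ERt2 array, and on 1 of 2 ERt2 arrays. The measured difference of −2.51 ± 0.51 (adjusted p = 0.00853) therefore gives a direction and no fold, and the call ended without ERt2 replicate 2 (adjusted p = 0.0563). A second Itga1 probe did not pass the filter on dim probes, and where that filter was dropped it stood in for the gene and gave −0.62 for ko minus wt (adjusted p = 0.572) and −0.52 for RUNX1-ERt2 minus ERt2 (adjusted p = 0.811). Itga1 was the 1 member called in the same direction in both comparisons. It is known from activated T and NK cells, and of 8 tested T and NK cell markers none was called higher and 2 lower in ko, and 1 was called higher and 1 lower with RUNX1-ERt2. Their summed level was 8.59 to 13.6 in ko and 20.3 to 34.5 in wt, and 15.0 to 15.9 with RUNX1-ERt2 and 36.3 to 48.8 with ERt2. The bright marker Nkg7 was called lower in both comparisons (−1.38 ± 0.19 and −1.57 ± 0.27). The median difference of the 8 markers went the other way, at 0.26 in ko and 0.81 with RUNX1-ERt2. One of these markers was not well above background on any RUNX1-ERt2 array and 1 on any ERt2 array, and their part in the Itga1 result was not tested.

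Itga2, which lies 130.0 kb from Itga1 on chromosome 13 and serves platelets as a collagen receptor, was well above background on the 4 ko arrays and on no other. The Itga2 probe (chr13:115626714-115626773, mm9, − strand) is shown because it encodes the membrane-near start of the alpha tail: in an open frame it holds the conserved motif of alpha tails, in capitals, that clasps the beta tail in a resting integrin.
Itga2 probe: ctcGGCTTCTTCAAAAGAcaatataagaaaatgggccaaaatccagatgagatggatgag
It gave −5.27, −5.42, −5.62 and −5.12 in ko, against −6.66, −7.45, −6.79 and −5.60 in wt. The lowest ko array overlapped the highest wt array. Itga2 was called higher in ko (adjusted p = 0.0204), 1.36-fold above the dimmest signals that counted as well above background on the wt arrays. The call was lost when any 1 of 5 arrays was removed (at the most adjusted p = 0.0645, without ko replicate 1). With normexp background correction the difference had the opposite sign (−0.44, adjusted p = 0.48). The signal was thus near the limit of the arrays. Itga10 was higher in ko by 0.47 ± 0.10 (adjusted p = 0.0085), as it was by a second probe (0.44 ± 0.11), but not called with normexp background correction (0.20, adjusted p = 0.405). With RUNX1-ERt2 it differed by 0.01 ± 0.14. Itga5, the main fibronectin receptor chain, was called in neither comparison (0.29 ± 0.11, adjusted p = 0.0786, and 0.00 ± 0.15, adjusted p = 0.993).

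**Figure D3:**
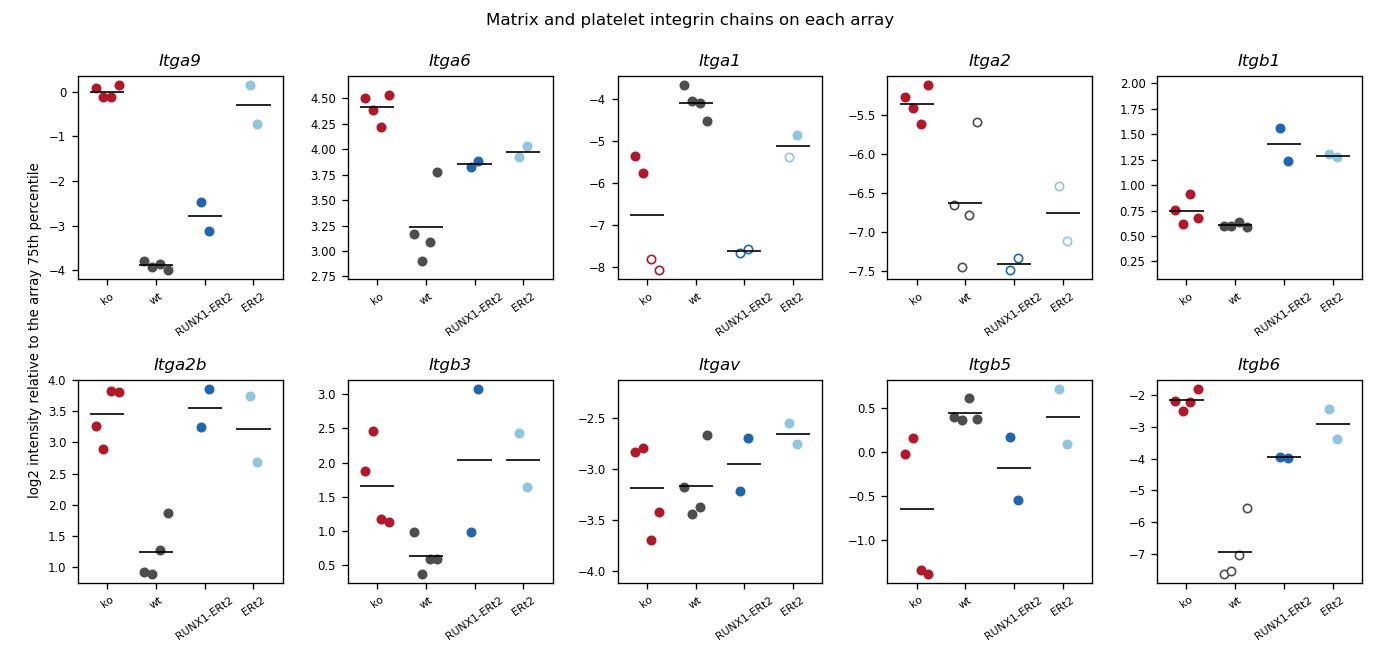
Log2 intensity relative to the array 75th percentile (vertical axes) of 10 matrix and platelet integrin chains on each array of ko, wt, RUNX1-ERt2 and ERt2 (horizontal axes), with 1 point per array, filled where well above background and open where not, and a line at the group mean. Itga9 is near 0 on the ko arrays and near −4 on the wt arrays, Itgb1 differs little within each pair of groups, and all 4 wt points of Itgb6 are open. The vertical axes have different ranges.

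The platelet fibrinogen receptor pairs Itga2b (CD41) with Itgb3. Itga2b measured 3.26, 2.90, 3.83 and 3.81 in ko, against 0.92, 0.89, 1.27 and 1.88 in wt. It was 4.62-fold higher in ko, with no overlap between the groups (2.21 ± 0.24, adjusted p = 0.000408; 2.17 and 2.25 on the slides). With RUNX1-ERt2 it stayed high, at 3.25 and 3.86, against 3.75 and 2.68 with ERt2 (0.34 ± 0.34, adjusted p = 0.559). Itgb3 measured 1.88, 2.46, 1.18 and 1.14 in ko, against 0.99, 0.38, 0.59 and 0.59 in wt. All ko arrays lay above all wt arrays, yet the difference of 1.03 ± 0.43 did not pass (adjusted p = 0.111; 1.49 on slide 1 and 0.57 on slide 2). With RUNX1-ERt2 it measured 0.99 and 3.08, against 2.44 and 1.64 with ERt2 (−0.01 ± 0.60, adjusted p = 0.996), and the 2 RUNX1-ERt2 arrays lay on either side of the ERt2 arrays. A second, dimmer Itgb3 probe gave 0.35 ± 0.39 for ko minus wt and 0.92 ± 0.555 for RUNX1-ERt2 minus ERt2. It was well above background on 1 of 2 arrays of each transplanted group. Of 13 tested megakaryocyte and platelet markers, a list without integrins, 6 were called higher and none lower in ko, and 2 higher and 3 lower with RUNX1-ERt2. Their summed level was 75.4 to 96.9 in ko and 31.1 to 37.9 in wt, and 42.3 to 71.2 with RUNX1-ERt2 and 42.4 to 63.0 with ERt2. None was below background on all arrays of ko or wt, Tubb1 was on both ERt2 arrays, and their part in the Itga2b result was not tested. Among them Treml1, a platelet granule receptor, was higher by 4.30 ± 0.40 in ko and differed by −2.19 ± 0.56 with RUNX1-ERt2. With RUNX1-ERt2 the called markers went both ways: Gp1ba, a chain of the von Willebrand factor receptor (2.57 ± 0.58), and the transcription factor Gfi1b (2.04 ± 0.47) were higher, and Nfe2, a transcription factor of megakaryocytes, was lower (−0.62 ± 0.15).

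Itgav pairs with Itgb1, Itgb3, Itgb5, Itgb6 or Itgb8 and binds vitronectin, fibronectin and latent TGF-beta. It was called in neither comparison (−0.02 ± 0.24, adjusted p = 0.963, and −0.30 ± 0.34, adjusted p = 0.611), and in ko it lay above wt on slide 1 (0.50) and below it on slide 2 (−0.54). Itgb6, an epithelial chain that activates latent TGF-beta together with Itgav, had the largest measured difference in ko. It measured −2.18, −2.49, −2.22 and −1.81 in ko, against −7.62, −7.55, −7.04 and −5.56 in wt, where no array was well above background. Itgb6 was called higher in ko (adjusted p = 5.14e-05, with measured differences of 5.25 and 4.29 on the slides). It lay 12.3-fold above the dimmest signals that counted as well above background on the wt arrays. With normexp background correction the difference was 1.48 and missed the threshold (adjusted p = 0.0627). With RUNX1-ERt2 it measured −3.94 and −3.99, against −2.43 and −3.38 with ERt2, lower on both arrays but not called (−1.06 ± 0.49, adjusted p = 0.178).

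The Itgb6 signal came from 1 of 2 probes, and both are shown since they disagree. The bright one reads the end of the coding sequence across an exon junction at chr2:60438632-60443247 (mm9, − strand), from base 2445 of the transcript. The other lies at chr2:60492788-60492847, from base 838, in the part of the transcript that encodes the head of the protein, and was not well above background on any of the 12 arrays.
Itgb6 probe at base 2445: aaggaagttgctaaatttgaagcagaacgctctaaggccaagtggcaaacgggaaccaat
Itgb6 probe at base 838: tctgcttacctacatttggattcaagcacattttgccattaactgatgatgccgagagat
Both can be read through in at least 1 frame without a stop. Whether the ko signal comes from the whole Itgb6 transcript was not tested.

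Itgb5, a vitronectin receptor chain, measured −0.02, 0.16, −1.34 and −1.38 in ko, against 0.41, 0.36, 0.62 and 0.38 in wt. All ko arrays lay below all wt arrays, but the fall was −0.32 on slide 1 and −1.86 on slide 2 (together −1.09 ± 0.31, adjusted p = 0.0318). The call ended without any 1 of 4 arrays (at the most adjusted p = 0.0977, without ko replicate 4) and with normexp background correction (adjusted p = 0.0545). With RUNX1-ERt2 Itgb5 differed by −0.59 ± 0.44 (adjusted p = 0.411). Itgb4, the laminin receptor partner of Itga6 in epithelia, differed by 0.22 ± 0.19 in ko and 0.48 ± 0.26 with RUNX1-ERt2, neither called.

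Of the switch proteins, Fermt3 (kindlin-3) was higher in ko and the talin Tln1 was not called. Fermt3 measured 3.16, 3.18, 3.44 and 3.26 in ko, against 2.46, 2.56, 2.55 and 2.19 in wt. All ko arrays lay above all wt arrays, a 1.77-fold higher level (0.82 ± 0.11, adjusted p = 0.00112; 0.66 and 0.98 on the slides). With RUNX1-ERt2 it measured 3.12 and 3.07, against 3.65 and 3.46 with ERt2, lower on both arrays but just outside the threshold (−0.47 ± 0.16, adjusted p = 0.0687). Tln1, the talin of blood cells, measured 5.67, 5.59, 6.03 and 5.91 in ko, against 5.42, 5.42, 5.77 and 5.36 in wt (0.31 ± 0.10, adjusted p = 0.056). It was called when replicate numbers were blocked (adjusted p = 0.0418). With RUNX1-ERt2 it differed by −0.07 ± 0.14 (adjusted p = 0.797). Itgb1bp1 (ICAP-1), which binds the Itgb1 tail and keeps talin and kindlin off it, was called in neither comparison (−0.15 ± 0.12 and −0.05 ± 0.18).

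Promoters of the members were searched for the core letters that RUNX proteins are known to bind, TGTGGT, and the variant TGCGGT, on both strands of the 250 bases before the start. RefSeq promoters (GRCm38.p6) were at hand as 25 sequences for 23 of the 32 genes, and 7 of the 25 (28.0%) held at least 1 match, against 18.6% of 32851 promoters of the same length. With TGTGGT alone the shares were 12% and 14%. No promoter sequence was at hand for Itgb2, Itga6 and Itgad, which were called in ko against wt, or for Itgal, so these were not searched. Fermt3 and Itga4 are shown, since they are the searched members called in ko against wt that hold a match, in capitals. The window is the last 80 bases before the start, at chr19:7019470-7019549 (− strand) and chr2:79255346-79255425 (+ strand).
Fermt3 promoter: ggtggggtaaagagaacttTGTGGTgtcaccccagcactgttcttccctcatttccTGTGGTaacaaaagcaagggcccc
Itga4 promoter: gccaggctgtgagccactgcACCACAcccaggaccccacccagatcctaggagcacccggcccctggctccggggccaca
The promoters of Itga9, Itgax, Itgb6, Itga2b and Itgb7 held no such letters in this window. A match in these letters is a description of the sequence and not a measured binding site.

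The remaining 9 genes were not tested, since no group had a probe of theirs well above background throughout. Itga7, Itga8, Itga11, Itgae and Fermt1 (kindlin-1, of epithelia) never stood well above background. Itga3, Itgb8 and Tln2 were so on 1 array each and Fermt2 (kindlin-2, of most other tissues) on 2. Laminin and collagen receptor chains of muscle, kidney and fibroblasts thus lay at or near background in these sorted cells.

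Alpha and beta chains were also set side by side. Of 18 known pairs with both chains tested, 2 had both chains called in ko against wt, Itgax with Itgb2 and Itgad with Itgb2, and both in opposite directions. In 9 pairs the alpha chain alone was called, in 4 the beta chain alone and in 3 neither. Pairs that share a chain are not separate results. Both pairs called in ko rest on the same call of Itgb2, and Itgb1, not called there, serves many of the others. With RUNX1-ERt2 both chains were called in 2 pairs, Itgal with Itgb2 in the same direction and Itgax with Itgb2 in opposite directions, and neither was called in 11. In ERt2 against ko both chains were called in 8 pairs, 4 of them in the same direction. Of all genes, 11.5% were called higher and 13.8% lower in ko, 10.2% and 8.87% with RUNX1-ERt2, and 30.2% and 26.7% in ERt2 against ko. The difference between the 2 chains of a pair was not tested.

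**Figure D4:**
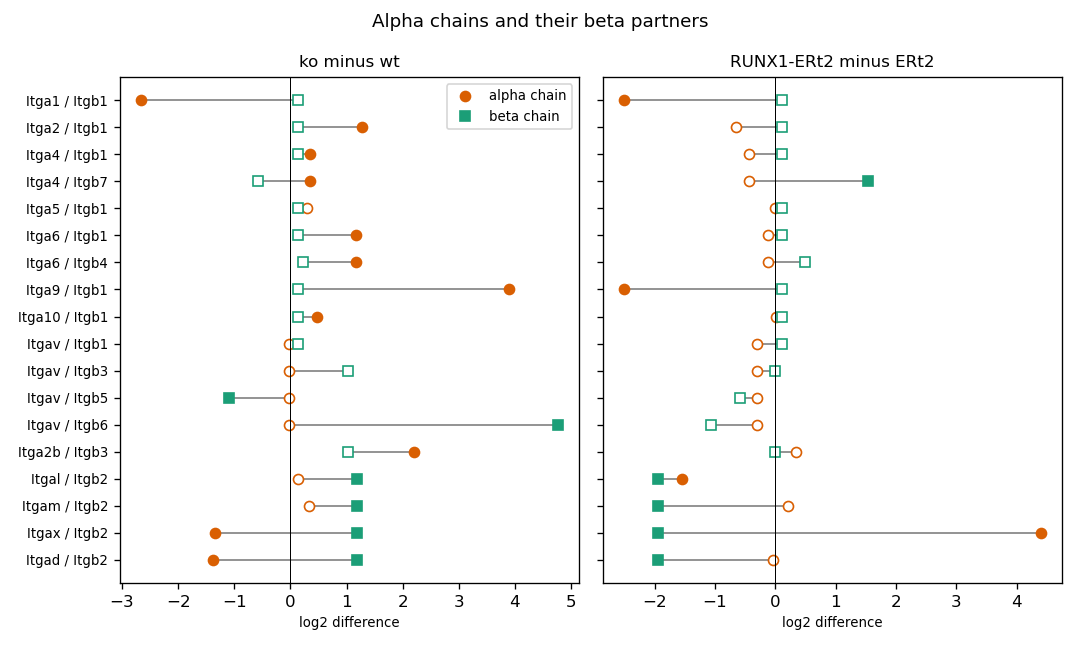
Log2 difference (horizontal axes) of the alpha chain (orange circle) and the beta chain (green square) of each of 18 integrin pairs (vertical axis) for ko minus wt (left) and RUNX1-ERt2 minus ERt2 (right), with filled symbols called and a line joining partners. In the right panel Itgal and Itgb2 lie together at −1.55 and −1.94, while Itgax lies at 4.40 across from Itgb2. A chain that serves several pairs is drawn in each.

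The comparison of ko with wt and that of RUNX1-ERt2 with ERt2 share no arrays, so a gene that depends on RUNX1 could be looked for as one that moved in opposite directions. Of the 23 genes, 4 were called in both and 3 of these went opposite ways: Itga9 and Itgb2, higher in ko and lower with RUNX1-ERt2, and Itgax, lower in ko and higher with RUNX1-ERt2. They are 13% of the tested members, where 4.55% of all genes tested (814) were called in opposite directions. The difference of the 2 effects, ko minus wt set against ERt2 minus RUNX1-ERt2, was tested in the same fit and was called for 7 members, 5 above 0 and 2 below, where 9.42% and 8.75% of all genes were called. For Itga2b (2.55 ± 0.42, adjusted p = 0.00371) and the Itga6 probe used (1.06 ± 0.29, adjusted p = 0.0335), the excess in ko over wt had a smaller or no counterpart in the transplanted cells. The second Itga6 probe disagreed, with −0.06 ± 0.25 for ko minus wt and 1.52 ± 0.35 for RUNX1-ERt2 minus ERt2. Its difference of effects (1.46 ± 0.43) thus lay in the transplanted cells. For Itga9 the excess in ko was the larger of the effects as well (1.39 ± 0.35, adjusted p = 0.0242). For Itgal (−1.41 ± 0.17, adjusted p = 0.000762), the difference lay in the transplanted cells, but its 2 other probes disagreed (−1.42 ± 0.21 and 0.71 ± 0.31). For Itgax (3.06 ± 0.52, adjusted p = 0.00451) the gain with RUNX1-ERt2 exceeded the loss in ko. Itgb6 and Itga1 were called as well, but the size of their difference cannot be read, since Itgb6 was at background on all wt arrays and Itga1 on both RUNX1-ERt2 arrays and on some of ko and ERt2. With normexp background correction the difference of effects was 0.79 for Itgb6 (adjusted p = 0.635), 0.75 for Itga9 (adjusted p = 0.49) and 1.11 for Itga6 (adjusted p = 0.0994), and with no filter on dim probes it was −1.14 for Itga1 (adjusted p = 0.572), none of them called. The call of Itga6 ended without any 1 of 10 arrays (at the most adjusted p = 0.108, without RUNX1-ERt2 replicate 2), that of Itga9 without ERt2 replicate 2 (adjusted p = 0.086) and 1 other array.

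ERt2 and ko GMP both lack endogenous Runx1 and differ in transplantation, virus, drug and slide. This comparison shares its ko arrays with the first and its ERt2 arrays with the second. Of the 23 members 8 were called higher and 5 lower in ERt2, where 30.2% of all genes were called higher and 26.7% lower. With the replicate number as a block in place of the slide term, 5 were called higher and 2 lower. This block sets ERt2 replicates 1 and 2 beside ko replicates 1 and 2, which nothing but the number links. Itgb2 and Itgal were higher in ERt2 (1.18 ± 0.22, adjusted p = 0.00148, and 0.92 ± 0.12, adjusted p = 0.000233). The 2 other Itgal probes disagreed, at 1.27 ± 0.15 and −1.47 ± 0.22, and the mean of the 3 Itgal probes was not called (0.24, adjusted p = 0.0617). Itga5 (0.84 ± 0.13, adjusted p = 0.000616) and Itgb1 (0.55 ± 0.11, adjusted p = 0.00299), the 2 chains of the fibronectin receptor, were higher too, and the second Itgb1 probe differed by 0.63 ± 0.20. These 4 calls and that of Itga10, which was lower (−0.49 ± 0.12, adjusted p = 0.0063), held without any 1 array. Itga10 was not called with normexp background correction (−0.33, adjusted p = 0.221), the array median (adjusted p = 0.0618) or the series matrix (adjusted p = 0.054). The native arrays of slide 2 alone ended the calls of Itga10 (adjusted p = 0.0607) and Itgb1 (adjusted p = 0.0505). Itgb1bp1 (0.51), Itga1 (1.64), Itgad (1.53) and Itgb5 (1.05) were called higher and Itgb4 (−0.92), Itga4 (−0.33) and Itgam (−0.56) lower, and each of these calls ended without 1 or more single arrays. Itga1 was well above background on 2 of 4 ko and 1 of 2 ERt2 arrays, and Itgad on 3 of 4 and 1 of 2. The values of Itga1 and Itgad are therefore no measured sizes. The block ended the calls of Itga1 (adjusted p = 0.165), Itgad (adjusted p = 0.407), Itgb5 (adjusted p = 0.192), Itga4 (adjusted p = 0.133), Itgam (adjusted p = 0.0773) and Itgb4 (adjusted p = 0.0595). Itga2 was the other member called lower, but it was at background on both ERt2 arrays, whose lowest measurable signal lay above the ko level, so no difference can be read. For Itgam the probes disagreed, at −0.56 ± 0.15, 0.53 ± 0.28 and 1.66 ± 0.27, and the mean of the 3 probes was called higher (0.54, adjusted p = 0.03). The 2 Tln1 probes gave −0.04 ± 0.13 and 1.11 ± 0.26. Late neutrophil markers had 7 of 11 members called higher and none lower in ERt2, with a summed level of 543 to 674 in ERt2 and 21.8 to 282 in ko. GMP markers had 9 of 11 called higher and none lower, at 945 to 1080 in ERt2 and 350 to 515 in ko. Of 10 markers of monocytes, macrophages and dendritic cells, 6 were higher and 2 lower, at 156 to 169 in ERt2 and 101 to 115 in ko. No marker of these lists was below background on all arrays of either group. The part of these lists in the Itgb2 and Itgal results was not tested.

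Genes that work with integrins were looked at in 3 lists that hold no member. Of 51 tested activators and adaptors, 15 were called higher and 3 lower in ko (median 0.23, against −0.05 over all genes). Those with the largest change up were Fblim1, a filamin-binding protein at actin-membrane contacts, which was not well above background in wt (1.99 ± 0.33 as measured), Dok2, an adaptor of tyrosine kinase signals (1.76 ± 0.24), and Tns1, a tensin that links beta tails to actin (1.33 ± 0.23). Those called lower were Rapgef3, an activator of the small GTPase Rap1 that recruits talin (−1.85 ± 0.13, adjusted p = 3.57e-05), Rasgrp2, the Rap1 activator of platelets and neutrophils (−0.66 ± 0.15), and Flna, a filamin that competes with talin for the beta tail (−0.54 ± 0.10). With RUNX1-ERt2, 3 of the 51 were higher (Lims1, Git1 and Lyn, by 0.61, 0.53 and 0.44) and 9 lower (median −0.14, against 0 over all genes). The largest falls were those of Fblim1 (−2.0 ± 0.47), the Src-family kinase Fgr (−1.94 ± 0.55) and Dok2 (−1.83 ± 0.34). Fblim1 and Dok2 were thus higher in ko and lower with RUNX1-ERt2.

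Among 25 tested ligands and counter-receptors, 6 were called higher and 3 lower in ko (median 0.29), and 6 higher and 6 lower with RUNX1-ERt2 (median −0.07). Jam3, a junction protein that Itgam binds, was higher in ko by 6.32 ± 0.38, ahead of the basement membrane genes Col4a2 (1.96 ± 0.23) and Nid2 (1.69 ± 0.20). Cdh1, or E-cadherin, the ligand of the integrin of Itgae and Itgb7, was not well above background in ko and lower there as measured (−5.54 ± 0.37), as were Col1a2 (−3.50 ± 0.29) and Tgfb3 (−0.55 ± 0.17), the last of which was not well above background on any ko array and on 1 wt array. With RUNX1-ERt2 the falls were led by Vcam1, the ligand of the integrins of Itga4 and Itga9 (−3.72 ± 0.61, adjusted p = 0.00305), Fn1, or fibronectin (−2.56 ± 0.57, adjusted p = 0.0136), and Nid2 (−1.73 ± 0.28). Cdh1 (2.39 ± 0.53, well above background on 1 of 2 RUNX1-ERt2 arrays and no ERt2 array), Tgfb3 (1.59 ± 0.25, on both and on none) and the laminin gene Lama5 (1.36 ± 0.35) were higher.

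Of 20 tested surface partners, which include the tetraspanins that hold integrins in membrane clusters, 4 were called higher and 1 lower in ko (median 0.05), and 2 higher and 5 lower with RUNX1-ERt2 (median 0.05). The syndecan Sdc1 (0.95 ± 0.25) and the tetraspanins Tspan32 (0.70 ± 0.13) and Cd37 (0.60 ± 0.15) were higher in ko, and Cd63, a tetraspanin of granules, was lower (−1.29 ± 0.10). With RUNX1-ERt2, Tspan9 (3.72 ± 0.52 as measured, not well above background with ERt2) and Cd63 (0.94 ± 0.15) were higher, while Tspan32 (−2.57 ± 0.19), Sdc1 (−2.34 ± 0.36) and Plaur, the urokinase receptor that associates with Mac-1 (−2.17 ± 0.27), were lower. In ERt2 against ko the 3 lists had 15 higher and 12 lower of 51, 9 higher and 5 lower of 25, and 7 higher and none lower of 20. Among their largest changes were Vcam1 (3.23 ± 0.53), Fgr (2.20 ± 0.47), Fn1 (1.95 ± 0.50) and Fblim1 (1.78 ± 0.41), with Plaur, Cd63 and Cd47 higher by 0.94, 0.93 and 0.81. Those called lower with the largest changes of their list were Rap1a (−5.47 as measured), Ltbp1 (−3.72 as measured), Skap1 (−2.08), Madcam1, Jam2 and Rasgrp3. Of the genes named here as lower, all but Skap1 were not well above background on either ERt2 array. The ko means of Madcam1 (−5.015), Rasgrp3 (−5.17) and Jam2 (−5.35) lay close to or below the lowest measurable ERt2 signals (−5.29 and −5.08). For these genes no difference can be read.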

How the data were processed

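RNA of sorted mouse GMP was labelled with Cy3 and hybridised to 12 one-colour arrays. The spot intensities were deposited as Agilent Feature Extraction output, which subtracts background within each array per the file headers, and are not yet scaled across arrays; version 9.1 of that software is named in the submitters' processing notes and another in the headers. The authors' series matrix holds a ratio, the deposited processed signal over a constant of the array, and its ko and wt columns match another replicate of their group. It was used as an alternative only.

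Log2 intensities minus the 75th percentile of each array were fitted with limma 3.58.1 (lmFit, eBayes; R 4.3.3) as the means of the 4 groups plus the slide, all 12 arrays together, with 7 residual degrees of freedom. A probe entered the test where some group had it well above background throughout, 1 probe (the brightest) stood for a gene, and the Benjamini-Hochberg adjustment ran over 17905 genes. Where a group was at background, the fold was taken against the dimmest signal of any probe well above background on each array. That need not be the limit of the gene's own probe. Of 48 member probes, 43 have an accession that RefSeq gives the same symbol, and none another. On simulated data 74% of 2-fold and 92% of 4-fold changes were recovered for ko against wt, and 54% and 79% for RUNX1-ERt2 against ERt2. Of the genes called there, 6.21% and 6.34% were false. The simulation changed 200 of 17905 genes and gave each array independent noise. Far more genes were called in the data, so these rates need not hold for them. The main fit took no pairing, and the replicate number was a block only in an alternative fit. Same-numbered ko and wt arrays deviated together from their group means (correlations 0.37, 0.35, 0.18 and 0.67), but these deviations include the slide. Within slides this held on slide 2 (0.43) and not on slide 1 (−0.03). Members and lists were chosen with earlier results of these data known. Genes named from the 3 lists are the 3 called genes with the largest change in each direction, except 2 in ERt2 against ko, 1 at background in both groups and 1 not reported here.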

Additional observations from a re-analysis of the deposited data

Results flagged for a closer look

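The difference of the effects, ko minus wt set against ERt2 minus RUNX1-ERt2, passed the test for 7 members. It was −5.18 for Itga1, −1.41 for Itgal, 1.06 for Itga6, 1.39 for Itga9, 2.55 for Itga2b, 3.06 for Itgax and 3.71 for Itgb6. The values of Itga1 and Itgb6 rest on groups at background and are no measured sizes. Normexp background correction ended the calls of Itgb6, Itga9 and Itga6, and dropping the filter on dim probes those of Itga1, Itga6 and Itga9.

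Among 64 sets of 4 arrays, ko and wt for each of the 32 genes, 4 had an array farther from its neighbours than Dixon's 95% limit, and chance gives about 1 in 20. Itga10 was lowest in wt replicate 3 (−2.52), Tln1 was highest in wt replicate 3 (5.77), and Fermt2 was highest in ko replicate 1 (−5.55). Itga11 was highest in ko replicate 3 (−7.17), where it was not well above background.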

How the results depend on the processing

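Among 24 alternatives, normexp background correction and slide 2 alone each changed 17 of the members' results. In ko against wt, 9 members were called higher; normexp gave 5 and the native arrays of slide 2 alone 4. Of 4 called lower, normexp left 2, no filter on dim probes 1, probes above background on all 12 arrays 2, leaving out the slide 1, slide 1 alone 1 and slide 2 alone 2. In ERt2 against ko, 8 were higher, and normexp, no slide term and the replicate block gave 5 each. Of 5 lower, normexp gave 1, the array median 2, the series matrix 2, no slide term 3, the replicate block 2 and slide 2 alone 3. For the difference of effects, 5 lay above 0, against 2 with normexp, 3 with no filter and 1 with slide 2 alone, and 2 lay below, against 1 with no filter and 1 with probes above background on all 12 arrays. The alternatives with slides alone were chosen after seeing the data. Without any 1 array, the counts were 7 to 10 higher and 2 to 5 lower in ko against wt, 1 to 2 and 3 to 7 for RUNX1-ERt2 against ERt2, 5 to 9 and 2 to 7 for ERt2 against ko, and 3 to 6 and 2 to 3 for the difference of effects.

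Signs turned for Itga2 with normexp (−0.44 for ko minus wt, 0.073 for ERt2 minus ko), and for ERt2 minus ko also for Itga1 with no filter, which brought in another probe (−1.52), and for Itgam (0.54) and Tln1 (0.53) with the mean of a gene's probes. Beside the calls given above, the replicate block called the difference of effects for Itgb2 (adjusted p = 0.0498). Pairing the transplanted arrays crosswise, chosen after seeing the data since same-numbered ones correlated at −0.19, gave 2 members higher and 6 lower (2207 and 1994 genes), against 2 and 4 (1999 and 1734 genes) with their own numbers.

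Over all genes, normexp called 923 higher and 1053 lower in ko, 726 and 664 with RUNX1-ERt2, 2739 lower in ERt2, and 614 above and 637 below 0 for the difference of effects. In ko the array median called 1397 lower and the series matrix 1328, leaving out 1 array down to 1447, slide 1 alone 1173 higher and 949 lower, and slide 2 alone 360 and 364. Leaving out RUNX1-ERt2 replicate 2 gave 935 lower with RUNX1-ERt2, and leaving out ERt2 replicate 2 gave 1027 above and 854 below 0 for the difference of effects. Slide 2 alone gave 832 and 724 there, slide 1 alone 1015 below. With no filter 10563 were higher in ERt2. Except where a value shows it, the cause was not tested. Dim signal limits Itga1, Itga2, Itgad and Itgb6.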
